A study of Mus musculus with 3 samples.

Results

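The mitochondrial ribosomal protein genes were examined as a family in RNA captured from tagged neurons of the mouse cortex-amygdala transition zone. Members were all gene symbols in the count tables that begin with Mrpl or Mrps followed by a digit, which gave 77 of 32531 listed genes, 48 named for the large subunit and 29 for the small subunit. The series held 1 group of 3 immunopurified libraries, called replicates 1, 2 and 3, from adult untreated control mice of the line OI82. These mice carry ribosomal protein L10a fused to EGFP in cells that use Lypd1 regulatory DNA, and tagged polysomes were pulled down with anti-EGFP antibodies, a method called translating ribosome affinity purification (TRAP). The labels do not say whether a library came from 1 mouse or from pooled mice, and the spread between libraries may be partly technical. No unpurified RNA and no other cell population was analysed here, so all values are levels in captured RNA and not enrichments.

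Mitochondria have their own ribosome, which makes the few proteins still encoded by mitochondrial DNA, all of them core parts of the respiratory chain or of ATP synthase. Its ribosomal RNA comes from mitochondrial DNA, whereas every ribosomal protein is encoded in the nucleus, translated in the cytosol and imported. The large subunit joins amino acids and feeds the new protein towards the inner membrane, and the small subunit reads the messenger RNA. Neurons depend strongly on respiration. The capture aims at messenger RNAs on tagged cytosolic ribosomes, but the captured RNA also held nuclear RNA such as Malat1, as given below. How much of the members' RNA was on tagged ribosomes was not tested.

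Promoter sequence is shown first because the choice of members by symbol did not use it. No motif searched was present in most members. RefSeq promoter windows in build GRCm38.p6, running from 250 bases before to 50 bases after a gene's start, were matched by symbol for 68 of 77 members. The binding motif of NRF1, a transcription factor known for driving genes of mitochondrial function, was searched on both strands as GCGCA and GCGC separated by any 1 base. It was present in 13 of 68 member windows (19.1%), in 1293 of 27025 windows of all genes (4.78%) and in 1005 of 9294 windows of genes detected in these libraries (10.8%). Among 62 nuclear respiratory chain genes the share was 25.8%, above that of the members, and among 57 cytosolic ribosomal protein genes 7.02%. The large-subunit share was 23.8% (10 of 42) and the small-subunit share 11.5% (3 of 26). Upstream stretches of the 5 large-subunit members with the highest levels among those that hold this motif upstream of a single listed start, and that have no coding neighbour starting on the opposite strand close by, are printed 5′ to 3′ on the strand of the gene, with the motif in capitals.
Mrpl17, chr7:105811088-105811176, minus strand: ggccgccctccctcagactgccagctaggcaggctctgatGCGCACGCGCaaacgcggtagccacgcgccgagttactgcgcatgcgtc
Mrpl39, chr16:84735320-84735409, minus strand: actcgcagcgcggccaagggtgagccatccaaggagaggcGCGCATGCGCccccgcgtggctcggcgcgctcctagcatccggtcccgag
Mrpl9, chr3:94443268-94443335, plus strand: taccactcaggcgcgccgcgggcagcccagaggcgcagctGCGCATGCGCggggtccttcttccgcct
Mrpl12, chr11:120484516-120484605, plus strand: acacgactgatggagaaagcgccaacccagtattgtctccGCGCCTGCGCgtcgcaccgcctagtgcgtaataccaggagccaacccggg
Mrpl45, chr11:97315556-97315715, plus strand: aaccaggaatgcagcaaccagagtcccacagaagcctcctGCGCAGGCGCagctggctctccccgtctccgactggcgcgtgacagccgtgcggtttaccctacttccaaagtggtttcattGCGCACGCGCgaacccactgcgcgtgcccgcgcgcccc

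An ETS-family motif, CCGGAAG on either strand, was present in 24 of 68 member windows (35.3%), against 9.12% of all windows and 17.8% of those of detected genes. The cytosolic ribosomal protein genes had a higher share, 40.4%, and the respiratory chain genes 24.2%. Here the small subunit had the larger share, 42.3% (11 of 26) against 31.0% (13 of 42). The YY1 motif AAGATGGCG was found in 11.8% of member windows and in 3.25% of those of detected genes. The TATA box, searched as TATAAA, was found in 5.88% of member windows and 6.57% of those of detected genes. Motifs were searched separately, so matches of different motifs may overlap. A match is a description of the letters and not evidence of binding. For the small subunit, stretches of the 3 members chosen by the same rule with the ETS motif are printed with that motif in capitals.
Mrps26, chr2:130563703-130563756, plus strand: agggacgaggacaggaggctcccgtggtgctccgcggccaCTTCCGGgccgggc
Mrps18a, chr17:46110938-46111003, plus strand: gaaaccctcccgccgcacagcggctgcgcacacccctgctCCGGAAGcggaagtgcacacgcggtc
Mrps22, chr9:98601680-98601730, minus strand: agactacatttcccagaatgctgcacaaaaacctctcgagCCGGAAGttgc

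Members were spread over 17 chromosomes, and many sat head to head with another gene. In the GENCODE M21 annotation of GRCm38, 26 of 77 members (33.8%) had a protein-coding neighbour on the opposite strand whose start lay at most 1000 bases upstream of, or 500 bases past, their own start. Among all 22028 protein-coding genes, detected or not, 9.5% did, and the share among detected genes was not counted. The neighbours were not counted by function, but some also serve mitochondria or ribosomes. Mrpl36 starts beside Ndufs6, a complex I subunit, and Mrps12 beside Sars2, the mitochondrial seryl-tRNA synthetase. Mrpl49 starts beside Fau, which encodes a cytosolic ribosomal protein. Mrpl46 and Mrps11, of different subunits, start head to head with each other. Mrpl46 measured 20.8, 20.6 and 10.6 CPM in replicates 1, 2 and 3, where CPM stands for counts per 1000000 gene counts of a library, and Mrps11 measured 5.34, 5.91 and 7.38 CPM. Replicate 3 was thus the lowest for Mrpl46 and the highest for Mrps11.

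Gene counts totalled 18526251, 24690301 and 8668527 in replicates 1, 2 and 3, of which 34314, 56047 and 13857 fell on members. The median member had 344, 630 and 145 counts. A count of 0 allows a level of up to 0.162, 0.122 and 0.346 CPM, the level of 3 counts, for counting error only. All 8 neuronal markers checked were detected, summing to between 8843 and 16300 CPM per library. The 7 astrocyte markers were detected too, summing to between 1315 and 2131 CPM, with the highest sum in replicate 1. The 6 oligodendrocyte markers summed to between 224 and 383 CPM, 4 mural markers to between 35.9 and 126, and 5 endothelial markers, 3 of them detected, to between 36.7 and 87.4. The 6 microglial markers, of which Csf1r, Aif1 and P2ry12 were detected, summed to 39.7, 20.3 and 28.3 CPM in replicates 1, 2 and 3. Cx3cr1 measured 19.8 CPM in replicate 1 and under 3 CPM in the other libraries, and C1qa was at 0, 0.0405 and 0.231 CPM. Since mitochondrial ribosomal proteins are made by every one of these cell types, the captured pool cannot assign their transcripts to neurons alone, and in such bulk RNA fewer cells of a type and less RNA per cell cannot be told apart.

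Nearly the whole family was present. With detection set at 1 CPM or more in each library, 75 of 77 members were detected, 47 of 48 in the large subunit and 28 of 29 in the small, against 39.3% of all listed genes. At 5 CPM in each library 67 members remained, at 10 CPM 54 and at 20 CPM 23. Mean levels of the detected members ran from 2.99 CPM (Mrps18b) to 63.9 CPM (Mrpl30), but without replicate 2 Mrpl23 (1.42) was lower than Mrps18b (1.87). Together the 77 genes took 0.185%, 0.227% and 0.16% of all gene counts in replicates 1, 2 and 3. Over the 77 genes the median of the mean levels was 20.8 CPM, that of Mrpl12, and 43.5% of detected genes were lower than Mrpl12.

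**Figure D1:**
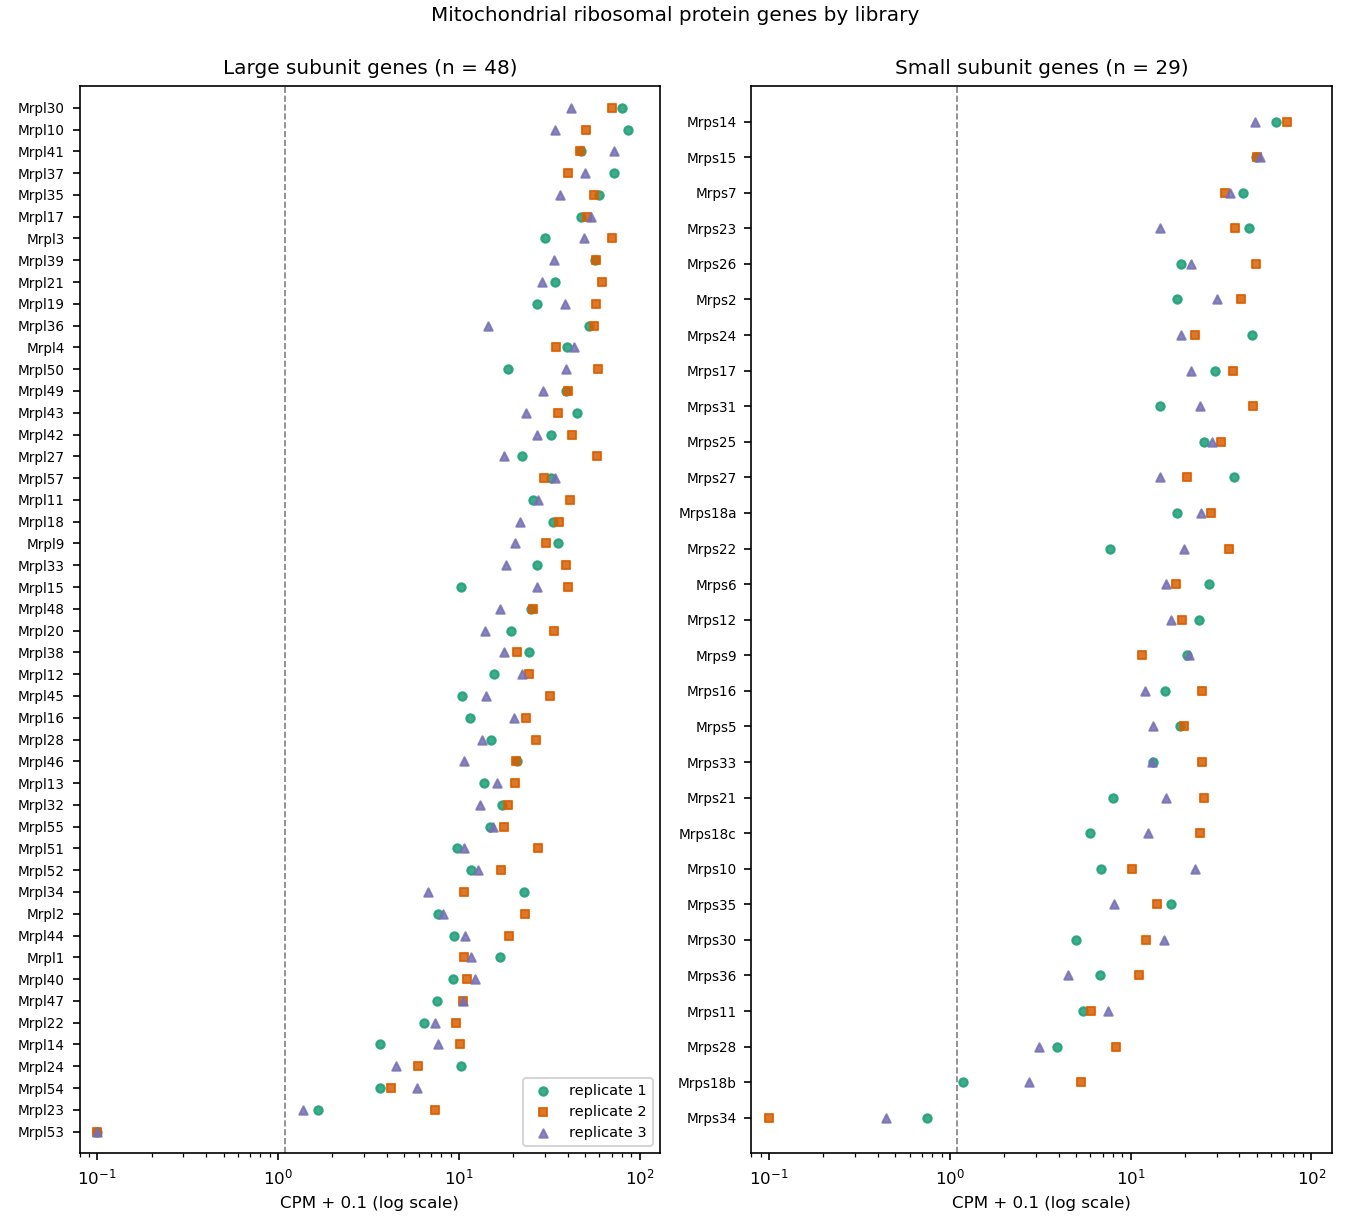
CPM of every member in each library, with 0.1 added and a log axis, ordered by mean; the dashed line marks 1 CPM. Most members lie between 5 and 80 CPM in each library, while Mrpl53 is at 0 in all 3 libraries and Mrps34 stays under 1 CPM.

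The 2 members that were not detected were both proteins that mitochondria added to the ribosome. Mrpl53 (ENSMUSG00000030037.9, chromosome 6, 83109040 to 83109939, plus strand) had 0 counts in each library. Mrps34 (ENSMUSG00000038880.13, chromosome 17, 24895116 to 24897502, plus strand), a small-subunit protein needed for that subunit's stability, had 12, 0 and 3 counts in replicates 1, 2 and 3, or 0.648, 0 and 0.346 CPM. Both had lower means than the next members upwards, Mrps18b at 2.99 and Mrpl23 at 3.36 CPM. In GENCODE M21, 88.0% of the exon bases of Mrpl53 and 77.8% of those of Mrps34 also belong to exons of another gene, and reads that fit more than 1 gene were set aside as ambiguous. By RefSeq gene spans, 14 of 825 bases of Mrpl53 and 0 of 1170 bases of Mrps34 lie within another listed gene. The annotation used for the deposited counts was not given in the sources used here, and the part of this overlap in their low counts was not tested. The 7 members with 25% or more of their exon bases shared, these 2 included, had a median of 2.79 ± 0.965 CPM per kb (SD, n = 3), and the other 70 a median of 8.73 ± 2.40. Among the 7 were Mrps25, with 69.8% shared and 25.3, 31.5 and 28.3 CPM, and Mrpl43, with 33.4% shared and 22.7 ± 7.08 CPM per kb. Across the 77 members the percent shared and the mean CPM had a Spearman rho of −0.097, a description across genes.

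Other members with copies elsewhere in the genome carry a similar limit. Of the 77 members, 19 had at least 100 bases of their longest coding transcript matched at 95% identity or more by an annotated pseudogene, and reads that align to several places were left out of the counts. Mrpl23, a protein at the exit of the peptide tunnel, had 68.9% of its transcript matched by 1 pseudogene and measured 1.57, 7.25 and 1.27 CPM. Mrps36 had 44.1% matched by 4 pseudogenes and measured 6.64, 11.1 and 4.38 CPM. Its product is now regarded as a part of the 2-oxoglutarate dehydrogenase complex and not of the ribosome. Mrpl27 had 59.1% matched by 2 pseudogenes and was still among the highest members per length, at 22.1, 57.8 and 17.8 CPM. Per length, the 19 members with such a copy had a median of 6.07 ± 2.33 CPM per kb (SD, n = 3) and the other 58 a median of 8.75 ± 2.40. Both medians come from the same libraries, so these SDs do not give the spread of the gap. Its source was not tested. Mrpl41, the highest member per length, is among those with a copy, at 47.9% of its transcript.

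Levels of different genes are compared per length, as CPM per kb of all annotated exon bases, which ranged from 607 to 8631 among members. Mrpl41, a large-subunit protein that bacteria lack, was the highest member at 53.6, 52.6 and 81.2 CPM per kb in replicates 1, 2 and 3 (mean 62.4 ± 16.2, SD, n = 3). Mrpl41 (ENSMUSG00000036850.4) lies on the minus strand of chromosome 2, from 24974117 to 24975098. Next came Mrpl36, whose bacterial counterpart is one of the smallest ribosomal proteins, at 44.9, 47.9 and 12.4 CPM per kb, with 2 libraries close to those of Mrpl41 and replicate 3 far below. Mrpl10, a base of the stalk that recruits translation factors, had 85.8, 50.6 and 34.1 CPM (33.3 ± 15.5 CPM per kb), and Mrpl27, which reaches towards the catalytic centre, had 22.5, 58.7 and 18.0 CPM per kb. Mrpl41 was higher than Mrpl36 and Mrpl10 in all 3 libraries, but lower than Mrpl27 in replicate 2. Mrpl43, which bacteria lack, was the fifth large-subunit gene with 29.5, 23.1 and 15.4 CPM per kb. The order of the members ranked 2 to 4, Mrpl36, Mrpl10 and Mrpl27, changed from library to library.

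Mrps15 led the small subunit at 29.0, 29.4 and 30.6 CPM per kb. By the ratio of plain CPM it was the steadiest detected member, with 49.2, 49.7 and 51.8 CPM and a highest level 1.05 times the lowest. This place depends on the scaling of the libraries, since with TMM scaling its SD rose from 1.38 to 2.75 CPM. Mrps15 (ENSMUSG00000028861.13, chromosome 4, 126046925 to 126055532, plus strand) encodes a protein of the small subunit's platform with a bacterial counterpart. It was followed by Mrps21 (22.1 ± 11.8 CPM per kb), Mrps23 (20.7 ± 10.1), Mrps24 (20.1 ± 10.5) and Mrps12 (19.1 ± 3.46), the last being the counterpart of the bacterial protein at the decoding site. The means of these 4 genes differed from each other by less than their spread between libraries. At the lower end of the detected genes were Mrpl23 at 0.688 ± 0.690, Mrpl13 at 2.11 ± 0.422 and Mrpl47 at 2.14 ± 0.386 CPM per kb in the large subunit. Among genes with small-subunit symbols they were Mrps18b at 1.43 ± 1.002, Mrps35 at 1.49 ± 0.518 and Mrps30 at 1.61 ± 0.797.

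The order depended on how length was counted. Across the 77 members, exon bases had a Spearman rho of −0.567 with mean CPM per kb and of 0.19 with mean CPM. Members with long annotated exons thus tended to rank low per length. Summing all annotated exons counts every annotated transcript form, and how much each form was used was not measured. When the median length of each gene's annotated protein-coding transcripts was used instead, the ranks of the 77 members were related by a Spearman rho of 0.721. These values are descriptions across genes that share libraries. Mrpl30 rose from rank 13 to rank 1 at 96.5 CPM per kb of coding transcript, Mrpl17 from 48 to 3 (68.1) and Mrpl33 from 60 to 4 (58.7). Mrpl41 held rank 2 (94.2), Mrps15 rank 6 (53.6), and Mrpl53 and Mrps34 remained the lowest. Mrpl23 (4.86), Mrps18b (3.72) and Mrps30 (3.23) stayed in the lower part, whereas Mrpl13 moved to rank 37 (17.6).

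**Figure D2:**
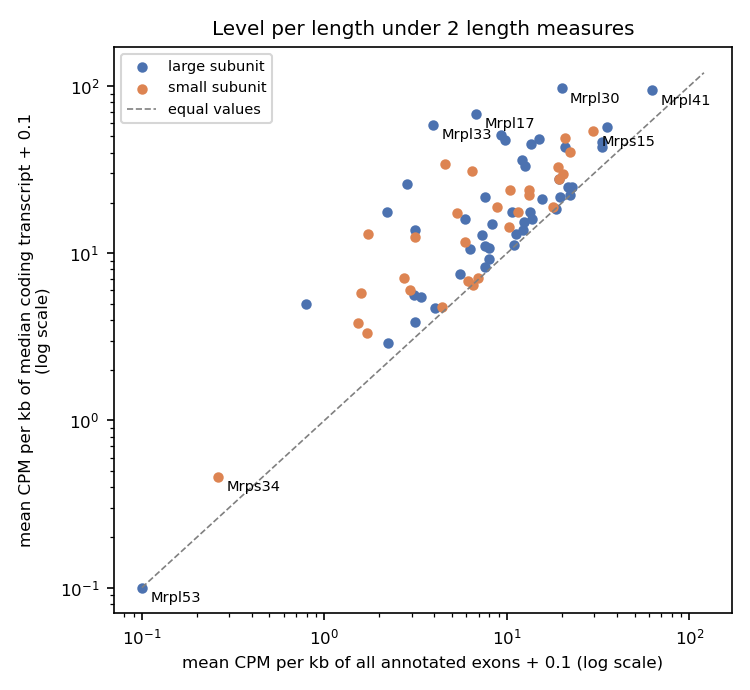
Each point is a member, with its mean CPM per kb of all annotated exons on the horizontal axis and per kb of its median coding transcript on the vertical axis, both with 0.1 added on log axes. Points far above the line of equal values, such as Mrpl33, Mrpl17 and Mrpl30, are genes whose annotated exons are much longer than their median annotated coding transcript.

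Large-subunit genes were somewhat more abundant than small-subunit genes per length. In replicates 1, 2 and 3 the 48 large-subunit genes had medians of 8.75, 11.5 and 7.51 CPM per kb, and the 29 small-subunit genes 4.89, 9.75 and 4.95. The large-subunit median was the higher in 3 of 3 libraries, by 0.82, 0.23 and 0.59 on the log2(CPM per kb + 0.1) scale, a mean of 0.55 ± 0.30 or 1.46-fold. The values of single genes of the subunits overlapped over nearly their whole range, and 13 of the 20 highest members were of the large subunit, which holds 62.3% of the family. No p-value is given for a score over chosen members, and an exact two-sided sign-flip test over 3 libraries could not go below 0.25. Without length correction the difference was 0.24 ± 0.063 on the log2(CPM + 1) scale, and per kb of coding transcript it was 0.38 ± 0.41, smaller than its spread.

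The symbols do not all follow the assembled ribosome. Mrps30 and Mrps18a carry small-subunit names but sit in the large subunit, and 6 further proteins of the particle carry other names. With genes placed by their position in the ribosome and these 6 added (52 large, 30 small, Mrps36 left out), the large minus small difference was 0.22 ± 0.33, smaller than its spread. With genes again grouped by symbol, the large subunit took 68.0%, 67.5% and 66.4% of the family's summed CPM in replicates 1, 2 and 3. The 6 members without an Mrp symbol were all detected. Aurkaip1 measured 21.4 ± 2.20 CPM per kb and Chchd1 19.5 ± 8.50, both in the small subunit. Ict1, a peptidyl-tRNA hydrolase built into the large subunit, measured 9.85 ± 5.18, the GTP-binding protein Dap3 8.45 (54.8 ± 9.73 CPM), the pentatricopeptide protein Ptcd3 4.50 ± 1.71 and Gadd45gip1 4.12 ± 1.02.

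**Figure D3:**
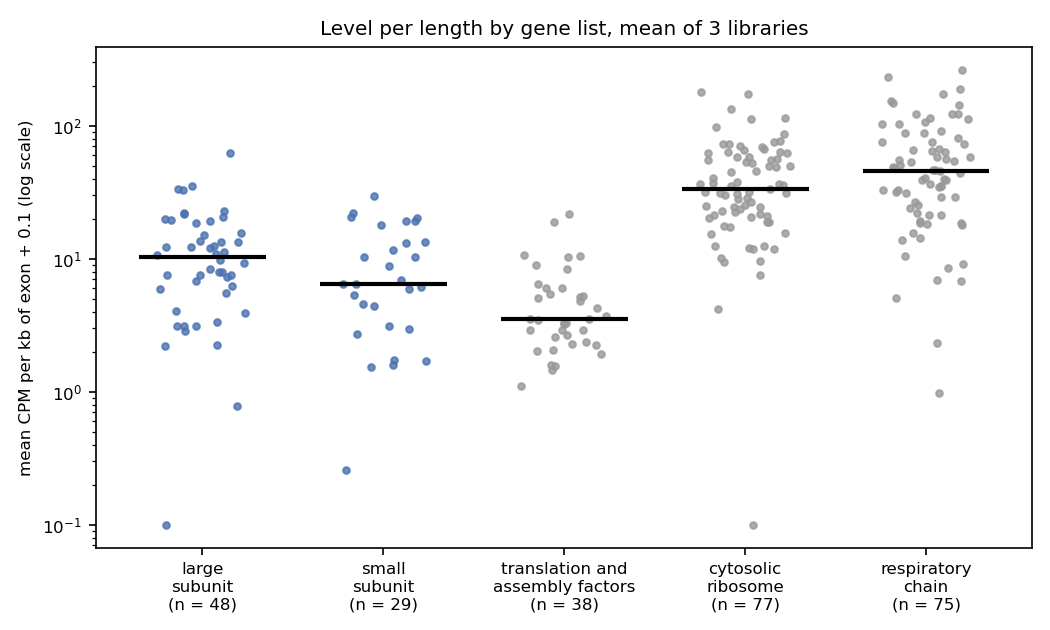
Mean CPM per kb of exon of each gene, with 0.1 added on a log axis, by gene list; bars are medians over genes. The large-subunit median (10.1 CPM per kb) sits above the small-subunit median (6.39), both above the translation and assembly factors (3.41) and below the cytosolic ribosome (33.6) and the respiratory chain (45.4).

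By place in the large subunit, the median was highest for the stalk and lowest for the tunnel exit. The median near the catalytic centre differed from that of the stalk by less than its own spread. The order of the places was not checked in each library. The 3 stalk genes Mrpl10, Mrpl11 and Mrpl12 had a median of 13.6 ± 3.04 CPM per kb. Mrpl12, which tethers translation factors and has also been reported to bind the mitochondrial RNA polymerase, measured 15.6, 24.5 and 22.4 CPM. The 4 genes near the catalytic centre (Mrpl2, Mrpl3, Mrpl16 and Mrpl27) had a median of 9.30 ± 5.21 CPM per kb, the 5 genes of the central protuberance 8.23 ± 1.29, from Mrpl48 at 2.74 to Mrpl18 at 21.6. The 8 genes around the tunnel exit had 6.41 ± 1.62, from Mrpl23 at 0.688 to Mrpl39 at 19.4. In the small subunit the medians were 14.9 ± 6.52 for 5 platform genes, 9.47 ± 4.58 for 8 head genes and 5.26 ± 1.72 for 4 body genes. The lowest and highest genes were Mrps11 (2.86) and Mrps15 (29.7) on the platform, Mrps35 (1.49) and Mrps24 (20.1) in the head, and Mrps5 (2.61) and Mrps12 (19.1) in the body. Single genes of 1 place thus differed from each other by more than the medians of the places did.

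The 3 paralogs of the bacterial S18 protein were expressed at unequal levels. Mrps18c, the paralog that keeps the bacterial place in the small subunit, measured 5.88, 24.1 and 12.5 CPM. Mrps18a, in the large subunit, measured 17.9, 27.8 and 24.5 CPM, and Mrps18b, a diverged small-subunit paralog, 1.08, 5.22 and 2.65 CPM. Per kb of exon the means were 13.2 ± 8.59, 6.34 ± 1.37 and 1.43 ± 1.002 for Mrps18c, Mrps18a and Mrps18b, and per kb of coding transcript 22.2, 31.1 and 3.72. Mrps18b was the lowest of the 3 under both length measures, while Mrps18a and Mrps18c exchanged places. For Mrps18b, 38.6% of the longest coding transcript was matched by 1 pseudogene and 30.5% of its exon bases were shared with another gene, and the part of either in its level was not tested.

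Members classed as having a bacterial counterpart were slightly higher per length than those classed as added by mitochondria, by far less than the spread across genes. All 46 members of the first kind were detected and 29 of 31 of the other kind. Their medians differed by 0.31, 0.31 and 0.23 on the log2(CPM per kb + 0.1) scale, a mean of 0.28 ± 0.044 or 1.22-fold, with the same sign in 3 of 3 libraries. Without length correction it was 0.083 ± 0.18, smaller than its spread, and per kb of coding transcript it was 0.44 ± 0.19. The highest member, Mrpl41, belongs to the added proteins, as do the 2 that were not detected. Also classed as added were Mrps18a (6.34 CPM per kb) and Mrps18b (1.43), although both are paralogs of the bacterial S18 protein. So was Mrps36 (5.79), no longer regarded as a part of the ribosome. The difference with these genes left out or moved was not computed.

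Mitochondrial ribosomal protein genes stood well below the genes of the cytosolic ribosome and of the respiratory chain. In replicates 1, 2 and 3 the median over members was 6.22, 11.2 and 7.36 CPM per kb, that of 77 cytosolic ribosomal protein genes 37.2, 38.8 and 24.4, and that of 75 nuclear respiratory chain genes 45.6, 56.5 and 29.4. The members' median was thus lower by 2.02 ± 0.47 (log2) than the cytosolic ribosome's and by 2.39 ± 0.44 than the respiratory chain's, each in 3 of 3 libraries. Among cytosolic ribosomal protein genes Rps15, Rpl4 and Rpl38 led at 179 ± 53.1, 172 ± 34.6 and 134 ± 50.1 CPM per kb. In the respiratory chain the cytochrome oxidase subunits Cox8a and Cox6a1 measured 264 ± 72.8 and 234 ± 71.3 CPM per kb and the ATP synthase subunit Atp5a1 188 ± 64.2. Without length correction the difference from the respiratory chain was −1.64 ± 0.23. Reads that align to several places were left out for these lists too, and pseudogene copies were searched for members only. The cytosolic gene Rpl26 was at 0 CPM in all 3 libraries. The part of such lost reads in these differences was not tested.

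The factors that build and serve the mitochondrial ribosome were lower than its proteins. Of 38 such genes 37 were detected, with a median of 3.31, 4.17 and 3.99 CPM per kb, and the members' median exceeded it by 1.05 ± 0.30 (log2), or 2.08-fold, in 3 of 3 libraries. Among translation factors the highest were the membrane insertase Oxa1l (10.7 ± 2.30 CPM per kb), the RNA-binding protein Lrpprc, which stabilises mitochondrial messenger RNAs (10.2 ± 2.73), and the initiation factor Mtif2 (8.83 ± 1.79). Among assembly factors they were Mterf4 (21.5 ± 8.62), Ngrn (18.8 ± 4.76) and Eral1, a chaperone of the small-subunit ribosomal RNA (10.3 ± 1.22). Rbfa, a small-subunit assembly factor, fell short of detection with 7.07, 0.851 and 2.19 CPM. None of the 38 genes was called as varying between libraries, and 2 of them, Tfb1m and Mettl17, had an unadjusted p under 0.05.

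Variation between libraries was near that of other genes. On the CPM + 1 scale, the median ratio of the highest to the lowest library was 1.88 over the members tested and 2.04 over all genes tested. Among the 75 detected members the highest library exceeded the lowest by 1.93-fold in the median on the CPM scale, by less than 1.5-fold for 18 members, by less than 2-fold for 39 and by more than 4-fold for 4. An edgeR fit across 15336 genes asked whether a gene varied more than genes of its abundance do. It called 33 genes at an adjusted p under 0.05, which is 0.215% of those tested, and 0 of the 75 members tested, a background so low that a count of 0 says little about the members. At an unadjusted p under 0.05 it picked 2 of 75 members, against 7.71% of all genes tested. These were Mrpl36, with 52.1, 55.6 and 14.4 CPM (adjusted p = 0.541 by edgeR), and Mrpl27 (adjusted p = 0.628 by edgeR). With 3 libraries the fit has little power, and a p that misses the threshold does not show equal levels.

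On the log2(CPM + 1) scale, the widest ranges among members of at least 5 CPM belonged to Mrps22 (2.07), Mrpl15 (1.88) and Mrpl36 (1.88), with Mrps18c (1.87) next. As a plain ratio of CPM, Mrps18c (4.10) came after Mrps22 (4.61) and before Mrpl15 (3.96) and Mrpl36 (3.86). Mrps22, a small-subunit protein that mitochondria added, measured 7.61, 35.1 and 19.6 CPM (adjusted p = 0.675 by edgeR). Mrpl15, a large-subunit protein with a bacterial counterpart, measured 10.1, 40.1 and 27.1 CPM (adjusted p = 0.715 by edgeR). Both were lowest in replicate 1 and highest in replicate 2, whereas Mrpl36 was lowest in replicate 3. The ranking of members by level was otherwise alike in the libraries, with a Spearman rho across the 77 genes of 0.86, 0.88 and 0.906 for the 3 pairs.

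The members tended to be highest in replicate 2, while the lowest library differed between members. Replicate 2 held the highest CPM for 45 of the 75 members tested (60.0%) and for 29.2% of all genes tested. Replicate 3 held the lowest for 35 of 75 members (46.7%) and for 27.5% of all genes tested. Replicate 1 was close, being lowest for 33 members (44%) and for 34.7% of all genes tested. In the small subunit replicates 1 and 3 were each lowest for 13 genes. The median deviation from a gene's own mean over the 3 libraries was −0.098, 0.26 and −0.22 on the log2(CPM + 1) scale in replicates 1, 2 and 3, against −0.020, −0.071 and 0.096 over all genes tested. With TMM scaling, which moved the median of all genes in replicate 3 from 0.096 to −0.011, the members' medians were −0.079, 0.36 and −0.33, so the direction in each library was kept. The large and small subunits had medians of the same sign in each library, with 0.26 and 0.27 in replicate 2 and −0.24 and −0.15 in replicate 3.

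**Figure D4:**
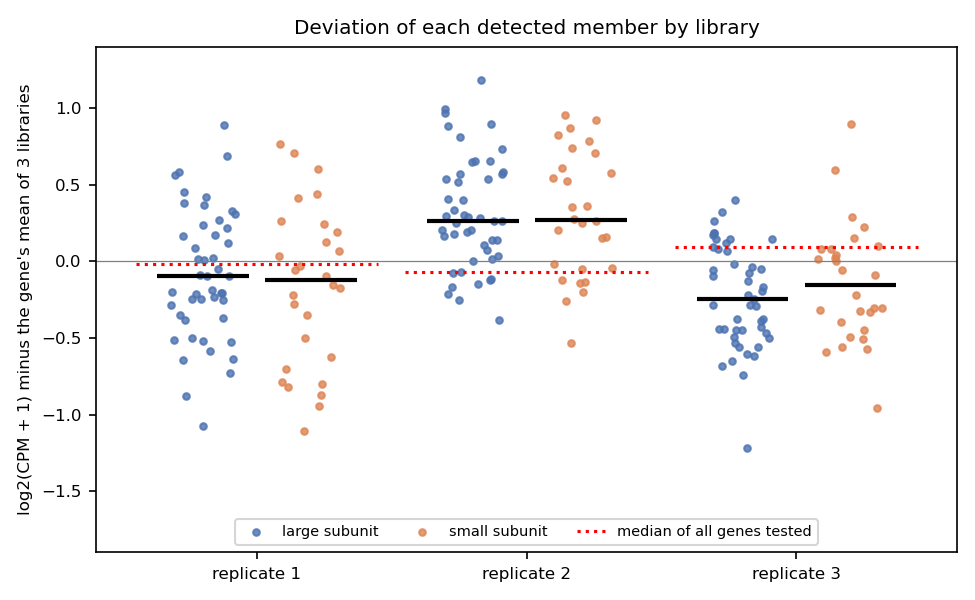
Deviation of each detected member from its own mean of the 3 libraries, on the log2(CPM + 1) scale, by library and subunit; black bars are medians over members and red dotted lines the median of all genes tested. Both subunits lie mostly above 0 in replicate 2 (medians 0.26 and 0.27) and below 0 in replicate 3 (−0.24 and −0.15).

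Replicate 2 also held the highest value for 53 of 75 respiratory chain genes and 51 of 76 cytosolic ribosomal protein genes, but for 12 of 38 mitochondrial translation and assembly factors. Several library measures also had their highest or lowest value in replicate 2. Reads in no counted gene made up 31.4%, 25.6% and 45.3% of entries in replicates 1, 2 and 3, and the nuclear RNA Malat1 measured 34476, 14400 and 82537 CPM. The summed neuronal markers, most of the sum being Snap25, were also highest in replicate 2, at 10982, 16300 and 8843 CPM. By gene, however, 4 of the 8 neuronal markers were highest in replicate 1 and 4 in replicate 2. The median of these markers was 374, 319 and 256 CPM in replicates 1, 2 and 3. Transcript length went with the share of other coding genes that were highest in replicate 2. It was 37.0% for those with a median coding transcript under 1 kb, against 26.1% at 4 kb or more. The members showed no steady trend with length. Their share was 67.6% of 34 under 1 kb, 45.8% of 24 at 1 to 2 kb, 57.1% of 14 at 2 to 4 kb and 100% of 3 at 4 kb or more. The part of each of these measures in the members' high values in replicate 2 was not tested.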

How the data were processed

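RNA captured from 3 libraries of 1 group was analysed. The values are raw read counts per gene, as deposited, which the authors made with STAR 2.0.0e alignment to mm10 and HTSeq counting, per the submitters' processing notes. Annotation, strand setting and kit are not given in the sources used here, so antisense and overlapping genes cannot be told apart. The 5 summary classes and a row without a gene name, at 0 counts, were left out. Reads aligned to several places made up 32.7%, 24.3% and 16.5% of entries in replicates 1, 2 and 3, and ambiguous reads 1.38%, 1.98% and 1.26%.

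CPM is a gene's count per 1000000 gene counts. Levels per length use exon bases of GENCODE M21 (GRCm38, the assembly mm10 names), found for all 77 members and all listed comparison genes, some under a newer symbol. Lists were compared by the difference of their medians in a library on log2(CPM per kb + 0.1). Variation was assessed by an edgeR 4.0.16 fit (R 4.3.3) with TMM scaling, 1 common mean per gene and trended dispersion. Its deviance was set against chi-square with df 2, and p-values were adjusted by Benjamini-Hochberg (threshold 0.05) over all genes averaging 1 CPM or higher. The script was tested on simulated data. DESeq2 1.42.0 gave size factors for an alternative. Other steps used Python 3.11.15, pandas 2.3.3, numpy 2.4.6, SciPy 1.17.1 and matplotlib 3.10.9.

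The members and lists were chosen with earlier results of these data known. Places in the ribosome and origins follow general knowledge of its structure. Mrps15 was moved from the body to the platform after its values were seen, because of its known position. Named members were, per subunit, the 5 highest and 3 lowest detected per kb, with those not detected or called, the 3 members of widest range at a mean of 5 CPM or more, and Mrps18a, Mrps18b, Mrps18c, Mrps30, Mrps36 and Mrpl12, and for the comparison lists the 3 highest per kb. Other names were chosen after their values were seen. Replicates 1, 2 and 3 were averaged as separate samples, and the SD is over n = 3.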

Additional observations from a re-analysis of the deposited data

How the results depend on the processing

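The 5 differences of list medians kept the sign of their mean over libraries under all 51 alternatives run. These covered length, pseudocount, list mean, low-level filter, TMM scaling, subunit by position and leaving out a replicate. Coding transcript length and leaving out Mrpl53 and Mrps34 were also among them, chosen after seeing the data. A single library could differ in sign, as replicate 2 did for bacterial counterpart minus added without length correction. Values that moved by more than their spread were the following, and the cause was not tested. Without length correction, large minus small was 0.24, bacterial counterpart minus added 0.083, and members minus respiratory chain −1.64. With subunits by position, large minus small was 0.22. Bacterial counterpart minus added was 0.48 with list means and 0.23 with genes of at least 1 CPM or, which is the same choice here, without Mrpl53 and Mrps34, and 0.44 per kb of coding transcript. Without 1 replicate each, large minus small ranged from 0.41 to 0.71. The count of members called as varying was 0 under every alternative of that fit, with 1 to 4 of the 72 to 76 members tested at an unadjusted p under 0.05 where a trended dispersion was used and 0 with a common dispersion. The count of all genes called was 33, and it was 775 with a common dispersion and ranged from 4 to 22 without 1 replicate (8 without replicate 1, 4 without replicate 2), where fewer libraries are tested. The number of members detected was 67 to 75 at thresholds from 0.5 to 5 CPM and 75 without any 1 replicate. Mean CPM of the 24 named members moved by more than their SD in 2 of 120 cases, Mrps15 (59.3) and Mrpl47 (11.2), both with totals that leave out Rn45s, Malat1 and Meg3. By ratio, leaving out replicate 2 lowered 5 of these means by over 1.5 times, Mrpl23 from 3.36 to 1.42, Mrpl27 from 32.6 to 19.9, Mrps18b from 2.99 to 1.87, Mrps18c from 14.2 to 9.17 and Mrps22 from 20.8 to 13.6, and leaving out replicate 1 lowered Mrps34 from 0.331 to 0.173. No member carries a pseudogene symbol, so that alternative was not run. No paired analysis was possible because the series has a single group. Replicate 3 has the least depth, with a median of 145 counts per member. Low members rest on few reads in replicates 1 and 3, with 20 and 23 counts for Mrps18b and 29 and 11 for Mrpl23.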
